A study of Mus musculus with 6 samples.

Results

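Subunits and receptors of the IL-12, IL-6 and IL-15 cytokine families were followed as a set of 10 genes: Il12a, Il12b, Il23a, Il27 and Ebi3 (IL-12 family), Il6, Il6ra and Il6st (IL-6 family), and Il15 and Il15ra (IL-15 and its receptor). They were picked by name, out of 19938 genes that the arrays measured, and each had 1 probe set with a single gene symbol. The cells came from the spleens of B6D2F1/J mice that had been lethally irradiated and given B6 marrow freed of T cells, with or without B6 spleen cells. The labels do not say which mice received the spleen cells, and give neither age nor sex. From transplantation to day 10 the mice received intraperitoneal PBS or 1.5 mg/kg of rapamycin, an inhibitor of the kinase mTOR, on alternate days. Each group had 3 mice with 1 array each, so that their number limits the precision. The cells, called myeloid-derived suppressor cells (MDSCs) in the labels, were taken with CD11b magnetic beads. These bind cells that carry CD11b, among them neutrophils, monocytes and some macrophages, and do not separate these from each other. The comparison asks which genes of these families differed with rapamycin.

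The IL-12 family consists of paired proteins, in which a helical alpha subunit (encoded by Il12a, Il23a or Il27) binds a beta subunit that resembles a soluble receptor (Il12b or Ebi3). Il12a with Il12b forms IL-12 and Il23a with Il12b forms IL-23, both made by activated phagocytes and dendritic cells, while Il27 with Ebi3 forms IL-27, which can restrain as well as promote T cell responses. IL-6 binds Il6ra and then the shared signalling chain gp130, encoded by Il6st, which IL-27 also uses. IL-15, a survival factor of NK cells and memory CD8 T cells, is held on the surface of myeloid cells by Il15ra and shown from there to neighbours that carry Il2rb and the common gamma chain.

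Of these genes Il15ra, Il27 and Il6ra rose with rapamycin and none fell past the test. Il15ra was 1.82-fold higher, Il27 1.39-fold and Il6ra 1.16-fold. Ebi3, the partner of Il27, was 1.18-fold higher on average and missed the threshold, and the transcripts of Il15 and Il6st did not pass it either. Il6, Il12a, Il23a and Il12b lay near background. A gene was called at a Benjamini-Hochberg adjusted p under 0.05 from limma, a linear model with variances moderated across genes. The test covered the 13965 genes above a brightness threshold, a mean log2 level at the 30th percentile of named probe sets (4.72). Of the 7 members above it, 3 were called higher and 0 lower, where 4.42% of all genes tested were called higher. The rapamycin arrays all lay above the PBS arrays for 5 of the 7, against 12.6% of the genes tested. The median log2 change was 0.22 in the 7 and -0.02 in all genes tested. These counts describe genes chosen by name, with earlier results of these data known, and were not tested as a list.

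Promoter sequence in the RefSeq table of the mouse build GRCm38.p6 was at hand for 7 of the 10 genes, and Il23a, Il27 and Il15 were not listed. The stretches of the called genes Il15ra and Il6ra are shown because these genes rose. Each runs 5′ to 3′ on the gene's strand over the 250 bases before an annotated start, and capitals mark matches to the motifs named after them.
Il15ra, first start, chr2:11705043-11705292, plus strand: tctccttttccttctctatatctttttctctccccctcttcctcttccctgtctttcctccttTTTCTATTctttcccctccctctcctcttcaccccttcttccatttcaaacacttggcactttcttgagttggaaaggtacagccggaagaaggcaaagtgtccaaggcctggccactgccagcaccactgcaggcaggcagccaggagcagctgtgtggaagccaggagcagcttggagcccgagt
Il15ra, other start, chr2:11705462-11705711, plus strand: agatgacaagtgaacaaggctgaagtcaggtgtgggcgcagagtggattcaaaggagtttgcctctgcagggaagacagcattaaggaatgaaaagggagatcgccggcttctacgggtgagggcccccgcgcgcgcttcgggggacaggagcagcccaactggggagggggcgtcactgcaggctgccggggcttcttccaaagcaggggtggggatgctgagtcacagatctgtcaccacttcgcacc
Il6ra, chr3:89913197-89913446, minus strand: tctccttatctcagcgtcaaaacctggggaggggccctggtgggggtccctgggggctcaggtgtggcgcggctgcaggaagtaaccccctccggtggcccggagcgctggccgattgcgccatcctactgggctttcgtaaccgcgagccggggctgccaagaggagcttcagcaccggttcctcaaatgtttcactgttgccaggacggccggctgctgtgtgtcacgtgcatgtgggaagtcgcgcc
The letters searched on both strands were AANNGAAA, the core bound by interferon regulatory factors, and TTCNNNGAA, the element bound by STAT dimers. They were searched in each window from 250 bases before to 50 after a start. AANNGAAA occurred once around each of the 2 Il15ra starts. At the other start the match began 27 bases into the transcript, as in the 30 bases ggctaaagcaaAAGCGAAAgcgaatactcc (chr2:11705727-11705756). Of 32851 windows in the table, 23.9% held this core and 8.30% the STAT element. The Il6 and Il6ra windows, like those of Ebi3, Il12a and Il12b, held no match to these letters, and Il6st held 1 to AANNGAAA. A match is a run of letters and not a measured binding site.

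**Figure D1:**
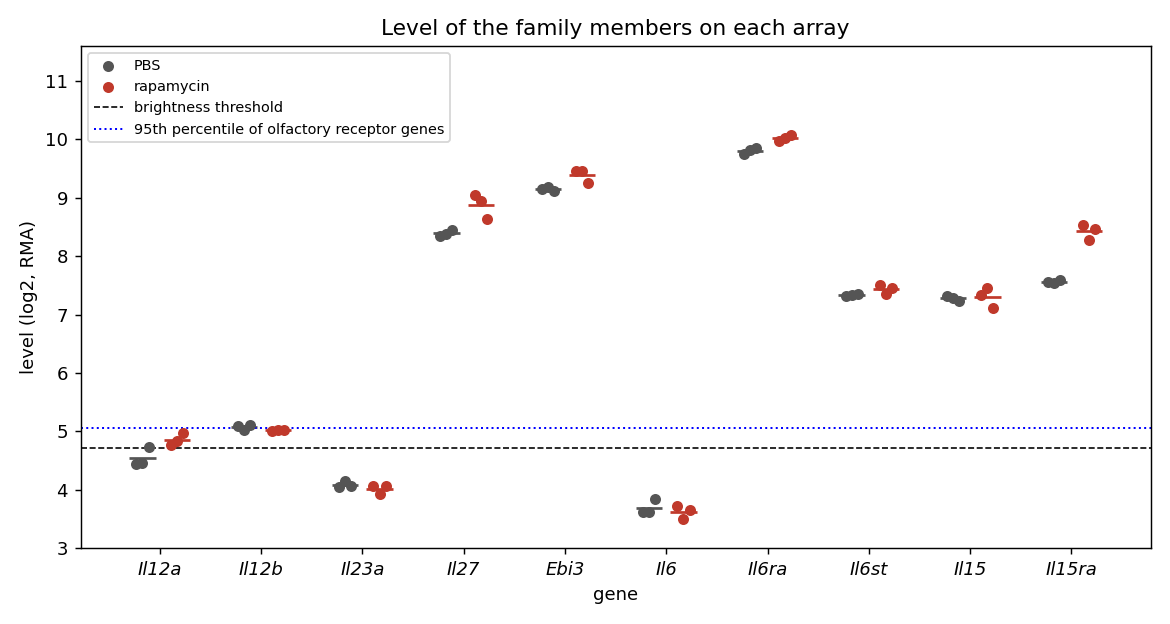
Level of each gene on each array (log2 RMA value, vertical axis) for PBS (grey) and rapamycin (red), with points for single mice and bars for group means. The dashed line is the brightness threshold of 4.72 and the dotted line the 95th percentile of olfactory receptor genes (5.05). Il15ra and Il27 show the widest gaps between the groups, and Il12a, Il12b, Il23a and Il6 lie along the lines or under them. Levels of different genes come from different probes and are not to be compared with each other.

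The receptor of IL-15 showed the largest change of the set. Il15ra (probe set 10469289) read 7.55, 7.54 and 7.60 in the PBS mice and 8.53, 8.29 and 8.47 in the rapamycin mice (log2). The groups were far apart, and the PBS mice lay close together. The means were 7.56 ± 0.03 and 8.43 ± 0.13 (log2, SD, n = 3 each), which differ by 0.87 ± 0.07 (SE; limma adjusted p 0.00380). By p it ranked 8 of the 13965 genes tested, and by size of increase 41. The call held in each of the 6 fits that left out 1 array, with changes from 0.81 to 0.94 and limma's adjusted p between 0.00784 and 0.0402. Without moderation of the variances its adjusted p was 0.0509.

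Il15, the ligand itself, did not pass the test. Its 3 PBS values were 7.31, 7.28 and 7.24 (log2, probe set 10579958), and its rapamycin values 7.34, 7.46 and 7.12. The rapamycin mice lay on either side of the PBS mice, and the groups overlapped. The difference was 0.03 ± 0.09 (log2, SE), with a 95% confidence interval from -0.17 to 0.23 and limma's adjusted p of 0.863. The array cannot show how much IL-15 protein sits on the receptor.

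Some macrophage markers rose together with Il15ra, and their part in its change was not tested. Of 12 such genes 2 were called higher, the scavenger receptor Cd68 (0.83 ± 0.09, log2 change and SE) and the heme oxygenase Hmox1 (0.72 ± 0.14), and 0 lower. Of all genes tested 4.42% were called higher and 6.92% lower. With 1 array left out, Cd68 was called in 5 of 6 fits and Hmox1 in 1. The median change of the 12 genes was 0.26. Vcam1 alone went the other way (-0.29 ± 0.13), and C1qa (0.08 ± 0.13) and Axl (0.04 ± 0.11) changed little, none of them called. Of 9 tested monocyte genes 1 was called higher (Ms4a6c) and 2 lower (Ccr2 and Ace), with a median of -0.03. With 1 array left out, Ms4a6c and Ace were called in 1 of 6 fits each and Ccr2 in 0. The mean level of the 12 macrophage genes ran from 8.11 to 8.54 (log2) in PBS mice and from 8.57 to 8.70 in rapamycin mice. In samples of many cells a larger number of cells of a type and more RNA per cell cannot be told apart. Of 10 dendritic cell markers 8 were tested and limma called 0, with 2 at an unadjusted p under 0.05 (Clec9a at 0.54 and Fscn1 at -0.18).

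Among the chains that pair with Il15ra or belong to the common gamma chain family, 11 of 12 listed genes were matched and 8 tested. Il2rb, the beta chain through which IL-15 signals, fell: it read 5.30, 5.30 and 5.41 with PBS and 5.04, 4.83 and 4.85 with rapamycin (log2). All 3 rapamycin values were under all 3 PBS values, at levels around the 95th percentile of olfactory receptor genes. The change was -0.43 ± 0.07 (log2, SE; limma adjusted p 0.0139), and it was not called without PBS replicate 2 or PBS replicate 3 (highest limma adjusted p 0.0636). Il4ra, the IL-4 receptor chain that pairs with the common gamma chain, was called higher, with 0.45 ± 0.06 (limma adjusted p 0.00855, and 0.0524 without PBS replicate 2). The other 6 did not pass the test, and the median of the 8 was 0.05. Over all genes tested, 4.42% were called higher and 6.92% lower. Il2rg, the common gamma chain, had no probe set of its own and was not analysed here.

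Some lymphocyte markers fell with Il2rb, and their part in its fall was not tested. Of 9 matched T cell genes, 6 were tested and 2 were called lower (Cd3g and Cd8a), where 6.92% of all genes tested were. With 1 array left out, Cd3g was called in 1 of 6 fits and Cd8a in 0. The mean level of the 9 ran from 5.12 to 5.19 (log2) with PBS and from 4.85 to 4.99 with rapamycin. Of the 9, 4 were not above the 95th percentile of olfactory receptor genes (5.05). Of 10 NK cell genes 5 were tested and 1 was called lower, the granule protease Gzmb (-0.76 ± 0.11), with a median of -0.0024 over the 5. Klrk1, which encodes the activating receptor NKG2D, stood at 0.52 ± 0.18 (log2, SE; limma adjusted p 0.107), with all rapamycin values above the PBS values, and the pore-forming Prf1 at -0.36 ± 0.14 (adjusted p 0.144). The defining NK markers Ncr1 and Klrb1c were under the brightness threshold. The mean level of the NK genes ran from 4.85 to 4.91 with PBS and from 4.79 to 4.87 with rapamycin, which overlap.

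IL-27 is the member of the IL-12 family whose subunit genes were both well above background. Il27, its alpha subunit (probe set 10567987), read 8.35, 8.38 and 8.45 in the PBS mice and 9.05, 8.94 and 8.64 in the rapamycin mice (log2). Rapamycin replicate 3 lay nearest to the PBS mice, yet above all of them. The group means were 8.39 ± 0.05 and 8.87 ± 0.21 (log2, SD, n = 3 each), and they differ by 0.48 ± 0.10 (SE; limma adjusted p 0.0291). With rapamycin replicate 3 removed it was 0.60 (limma adjusted p 0.0139). Removing any of the other arrays took the adjusted p over 0.05: it was 0.0966, 0.113 and 0.0816 after dropping PBS replicates 1, 2 and 3, and 0.0985 and 0.0859 after dropping rapamycin replicates 1 and 2. The changes in those fits ran from 0.39 to 0.51.

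Ebi3, the beta subunit of IL-27, gave a smaller difference that missed the threshold. It read 9.16, 9.19 and 9.11 with PBS and 9.46, 9.46 and 9.25 with rapamycin (log2, probe set 10445977). The groups did not overlap, and again rapamycin replicate 3 was the lowest of its group. The difference was 0.24 ± 0.07 (log2, SE) with a 95% confidence interval from 0.08 to 0.39, and limma's adjusted p of 0.0671 missed the threshold. Ebi3 was called without rapamycin replicate 3, at 0.31 (adjusted p 0.0224).

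IL-12 and IL-23 gave little signal. Il12b, the beta subunit that they share, read 5.09, 5.03 and 5.11 with PBS and 5.00, 5.03 and 5.03 with rapamycin (log2). PBS replicate 2, rapamycin replicate 2 and rapamycin replicate 3 had exactly the same value, and the groups overlapped. Its mean of 5.047 was just under the 95th percentile of 1027 olfactory receptor genes (5.052), genes of the nose used here as a measure of signal without expression. The difference was -0.06 ± 0.04 (log2, SE; limma adjusted p 0.449).

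Il12a and Il23a, the alpha subunits of IL-12 and IL-23, were under the brightness threshold and were read from a fit of all 19938 genes. Il12a, which can also pair with Ebi3, read 4.45, 4.45 and 4.73 with PBS and 4.76, 4.83 and 4.96 with rapamycin (log2). Its groups did not overlap, though PBS replicate 3 lay just under rapamycin replicate 1. Across all 19938 genes, 11.1% had rapamycin arrays wholly above the PBS arrays. The Il12a difference was 0.31 ± 0.09 (log2, SE), with limma's adjusted p of 0.0958. Il23a read between 4.04 and 4.14 with PBS and between 3.92 and 4.07 with rapamycin, a difference of -0.07 ± 0.05 (adjusted p 0.520). None of the 3 members under the threshold was called in that fit, in which 2.45% of all genes were called higher. With levels this close to background the size of a change can be understated.

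**Figure D2:**
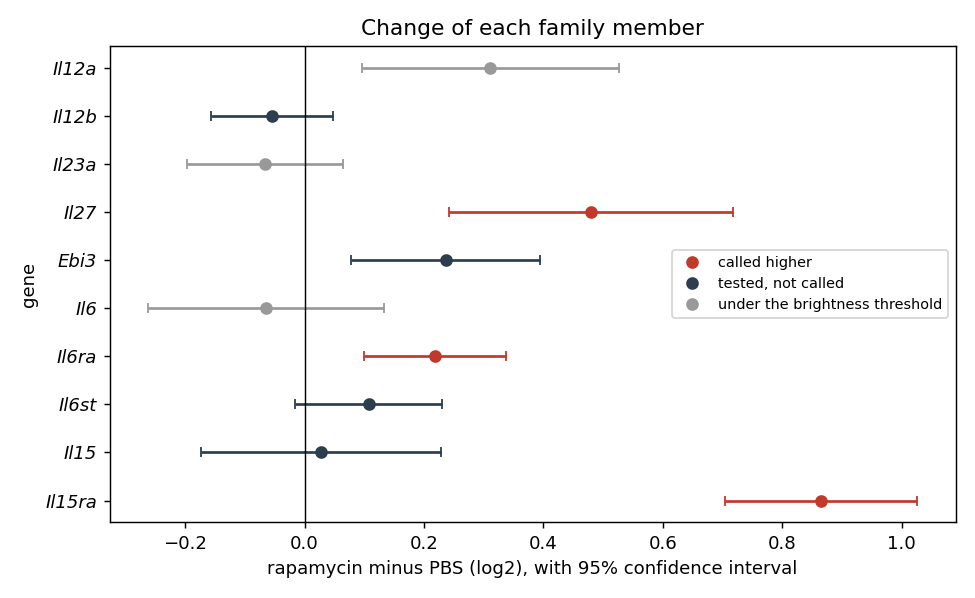
Rapamycin minus PBS (log2, horizontal axis) for each of the 10 genes, with 95% confidence intervals from limma and 3 mice a group. Il15ra (0.87), Il27 (0.48) and Il6ra (0.22) were called higher, and the 3 genes in light grey lay under the brightness threshold.

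The receptors for IL-12, IL-23 and IL-27 gave no call among the 3 of 4 that were tested, with 0 higher, 0 lower and a median change of 0.18, and limma gave 1 of the 3 an unadjusted p under 0.05. Il12rb2, the chain that gives the IL-12 receptor its signal, came closest: it read 6.67, 6.48 and 6.46 with PBS and 7.15, 6.88 and 6.75 with rapamycin (log2). All rapamycin values were higher, by 0.39 ± 0.11 on average (SE; limma adjusted p 0.0580). Il12rb2 was called with the filter at the 50th percentile, after quantile normalization again, with array weights, with the replicate block, with the medians of the genes tested aligned, and without rapamycin replicate 3. Stat4, the transducer downstream of that receptor, fell. It read 8.21, 8.29 and 8.20 with PBS and 7.79, 7.69 and 7.16 with rapamycin, a change of -0.68 ± 0.15 (log2, SE; limma adjusted p 0.0340). Rapamycin replicate 3 was the lowest of the 6, and of the 6 fits on 5 arrays, the call held in that without rapamycin replicate 3 alone. Stat4 is also a gene of T and NK cells, whose markers are given above beside Il2rb.

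On the IL-6 side the change was in the receptor and not past the test in the ligand. Il6ra (probe set 10499655), the chain that binds IL-6, read 9.75, 9.82 and 9.86 with PBS and 9.97, 10.03 and 10.08 with rapamycin (log2). The groups did not overlap, and the gap between them was about as wide as the spread inside each. The group means were 9.81 ± 0.05 and 10.03 ± 0.05 (log2, SD, n = 3 each), and they differ by 0.22 ± 0.05 (SE; limma adjusted p 0.0375). This call was lost in each of the 6 fits with 1 array left out, PBS or rapamycin, with changes from 0.19 to 0.25 and adjusted p between 0.0735 and 0.112. It was also lost when the values were quantile normalized again (0.18, adjusted p 0.0759).

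Il6st, which encodes the shared chain gp130, read 7.32, 7.34 and 7.35 with PBS and 7.51, 7.36 and 7.46 with rapamycin (log2). Rapamycin replicate 2 lay almost on PBS replicate 3, so the groups touched without overlapping. The difference was 0.11 ± 0.05 (log2, SE; limma adjusted p 0.228), with a 95% confidence interval from -0.02 to 0.23.

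Il6, the ligand, was near background, at percentile 4.30 of named probe sets. It read 3.62, 3.62 and 3.83 with PBS and 3.72, 3.50 and 3.66 with rapamycin (log2), so the groups overlapped. The difference was -0.06 ± 0.08 (SE; limma adjusted p 0.685 in the fit of all genes), and its sign turned without PBS replicate 3 (0.01).

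Other ligands of the IL-6 family, 6 of 8 matched and 3 tested (Lif, Osm and Clcf1), gave 0 calls with limma, 0 at an unadjusted p under 0.05, and a median of 0.12. Clcf1 had the largest statistic among them, at 0.14 ± 0.07 (log2, SE; limma adjusted p 0.261). Of the other receptors, 4 of 5 were matched and 3 tested, and 1 fell: Cntfr, the ligand-binding chain for ciliary neurotrophic factor, went from 5.91 ± 0.07 to 5.64 ± 0.03 (log2, SD, n = 3 each; limma adjusted p 0.0184). Its call held when PBS replicate 1 or rapamycin replicate 3 was dropped, and was lost when any of the other 4 arrays was. Il6ra can be cut from the cell surface by the protease encoded by Adam17. Of 4 genes listed for this step 3 were tested, and Rhbdf2, which encodes the iRhom2 partner of that protease, rose. Rhbdf2 read 8.47, 8.49 and 8.50 with PBS and 8.93, 8.89 and 8.65 with rapamycin, a change of 0.34 ± 0.08 (log2, SE; limma adjusted p 0.0354). Of the fits on 5 arrays, it was called in that without rapamycin replicate 3. Adam17 itself differed by 0.13 ± 0.09 and Adam10 by -0.10 ± 0.07, neither past the test. Over all genes tested, 4.42% were called higher and 6.92% lower.

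The pathway lists as a whole held 68 genes, of which 61 were matched and 51 tested. In all 7 rose and 4 fell, where 4.42% and 6.92% of the genes tested did, and their median change was 0.06. Dropping PBS replicate 1, 2 or 3 left 4, 0 and 2 calls in place of 11, and dropping rapamycin replicate 1 or 2 left 3. Among the 17 tested JAK-STAT genes 3 rose and 2 fell, with a median of 0.02. Socs1, an inhibitor of JAK kinases, rose by 0.49 ± 0.12 (log2, SE; limma adjusted p 0.0448): it read 7.72, 7.77 and 7.70 with PBS and 8.40, 8.37 and 7.92 with rapamycin, where replicate 3 again lay nearest to PBS. Pias1, a SUMO ligase, rose by 0.22 ± 0.05 (limma adjusted p 0.0461). Jak1, a kinase used by gp130 and by receptors that contain the common gamma chain, fell by 0.23 ± 0.05 (limma adjusted p 0.0386). Of the 6 fits on 5 arrays, Socs1 was called in 1, that without rapamycin replicate 3, and Pias1 and Jak1 in 0.

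Stat3, the main transducer of IL-6, read between 10.47 and 10.52 with PBS and between 10.52 and 10.53 with rapamycin (log2), a difference of 0.02 ± 0.04 (limma adjusted p 0.784). Probe sets disagreed for the feedback genes Socs3 and Socs2. Socs3, which IL-6 induces, differed by 0.02 ± 0.13 on its brighter probe set and by -0.76 ± 0.07 on the other (limma adjusted p 0.00668 over all probe sets). It is counted here by the brighter probe set, and it was called when its probe sets were averaged. Socs2, an inhibitor of cytokine receptors, rose by 0.31 ± 0.06 on the brighter of 2 (limma adjusted p 0.0242), and stood at 0.04 ± 0.06 on the other. These 2 probe sets were about equally bright (mean levels 6.59 and 6.55), and Socs2 is counted as higher by the first. Socs2 was also called when its probe sets were averaged. Its call was lost in each of the 6 fits on 5 arrays.

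Of the genes that control transcription or decay of these cytokines' mRNAs, 14 were tested, 2 rose, 0 fell, and the median was 0.10. Of all genes tested, 4.42% rose and 6.92% fell. Nfil3, a leucine zipper factor, read 8.27, 8.30 and 8.26 with PBS and 8.70, 8.74 and 8.57 with rapamycin, a rise of 0.39 ± 0.05 (log2, SE; limma adjusted p 0.00908) that held in 5 of 6 fits on 5 arrays and was lost when PBS replicate 2 was dropped (0.0531). Irf1, a factor of the interferon response, rose by 0.35 ± 0.08 on its brighter probe set. The other probe set fell, with a change of -0.52 ± 0.08. Limma's adjusted p over all probe sets was 0.0465 for the rise and 0.0148 for the fall. Irf1 is counted here by its brighter probe set, and it was not called when its probe sets were averaged. The rise was called in 1 of the 6 fits on 5 arrays, without rapamycin replicate 3. Zfp36 and Zc3h12a, which destabilise Il6 mRNA, differed by 0.05 ± 0.08 and 0.02 ± 0.06, and Arid5a, which stabilises it, by 0.17 ± 0.07 (limma adjusted p 0.698, 0.888 and 0.179). Jak3 and Nfkb1 had no probe set of their own and were not analysed here.

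**Figure D3:**
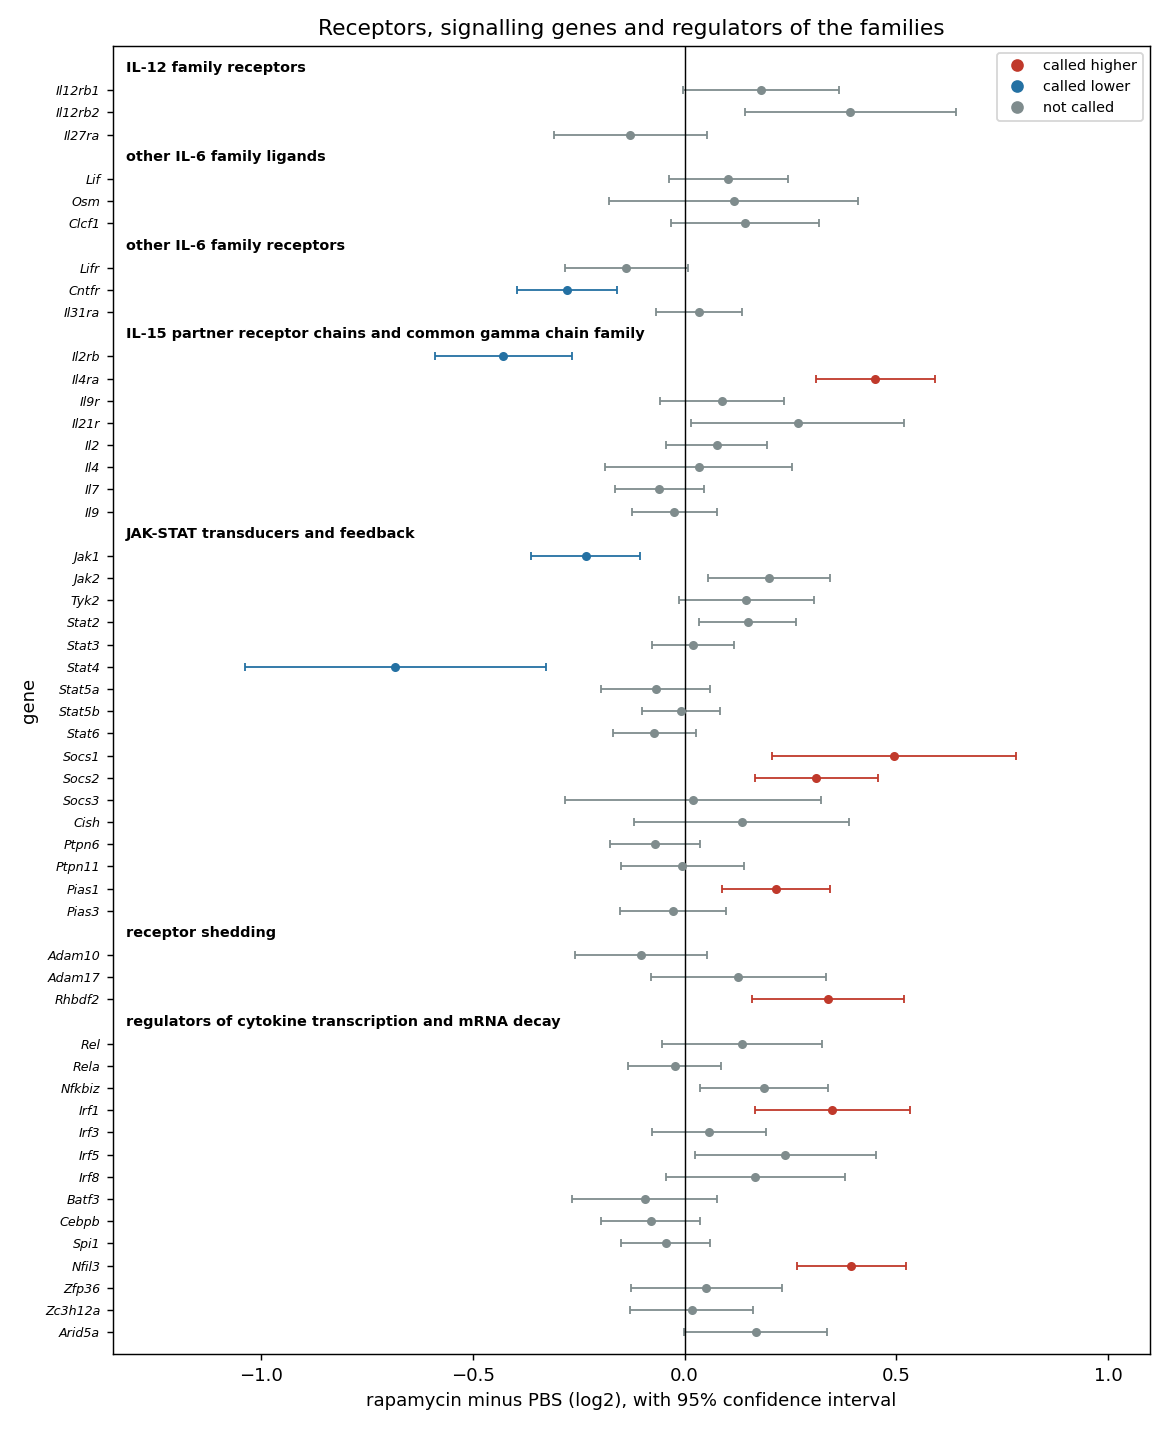
Rapamycin minus PBS (log2, horizontal axis) for the 51 tested genes of the 7 pathway lists, with 95% confidence intervals from limma. Red genes were called higher (7), blue lower (4) and grey not called, and Stat4 (-0.68) and Socs1 (0.49) lie farthest to either side.

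The genes whose values over the 6 arrays ran most like those of the called members were named by Pearson correlation, as a description without a p, since the arrays fall into 2 groups. For Il15ra they were Cst3 (r 0.995), Sec61b (0.994) and Slc15a4 (0.993), all called higher, with log2 changes of 0.44, 0.32 and 0.38. Cst3 encodes the protease inhibitor cystatin C. For Il27 they were Rhbdf2 (0.997), the potassium channel gene Kcnj2 (0.996) and Stat2 (0.994), with changes of 0.34, 0.47 and 0.15, of which Stat2 was not called. For Il6ra they were Ltbp1 (0.998), Fblim1 (0.991) and Wfdc10 (0.987), with changes of 0.55, 0.33 and 0.05, of which Wfdc10 was not called.

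**Figure D4:**
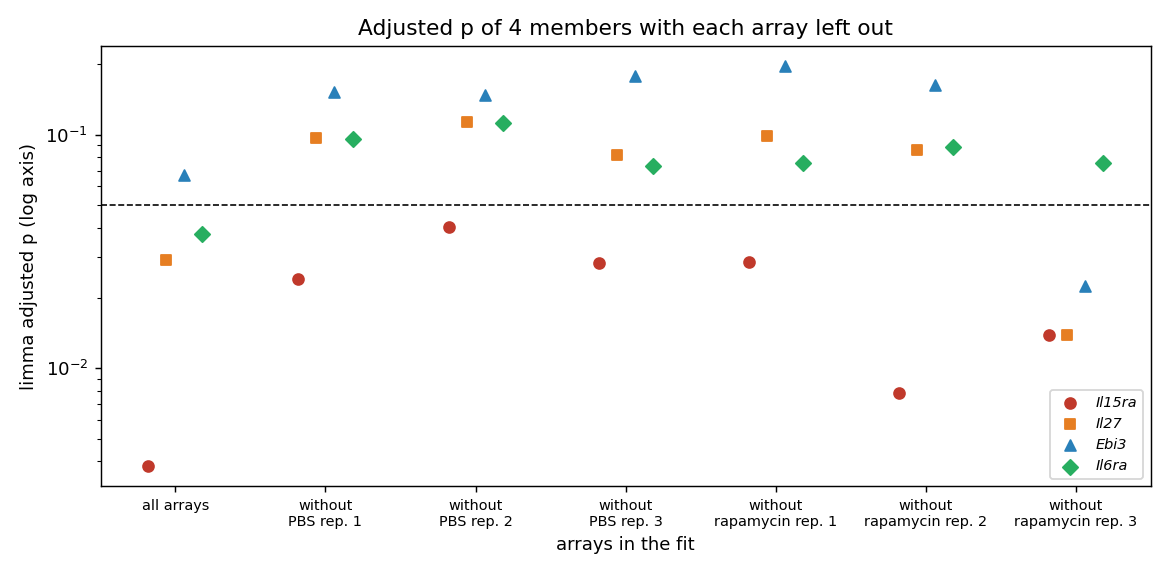
Limma's adjusted p (vertical log axis) of Il15ra, Il27, Ebi3 and Il6ra with all 6 arrays and with each array left out in turn (horizontal axis). The dashed line is 0.05, under which Il15ra stayed in all 7 fits, Il27 in 2, and Ebi3 and Il6ra in 1 each.

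The sort was checked against marker genes. Itgam, which encodes CD11b, had a mean level of 12.39 with PBS and 12.27 with rapamycin (log2), and the 12 neutrophil genes averaged between 12.67 and 12.82 on all 6 arrays. Of 76 tested marker genes 5 were higher (Il1r2, Ms4a6c, Cd68, Hmox1 and the erythroid gene Slc4a1) and 6 lower (Ccr2, Ace, Gzmb, Cd3g, Cd8a and Cd79b). Among the marker genes, 1 and 3 in all were called after dropping PBS replicate 2 or 3, and 5 and 7 after dropping rapamycin replicate 1 or 2, in place of 11, and these are not all among the 11. Over all genes, 617 rose and 967 fell (11.3% of those tested), and 61.0% of these calls were lower, against 44.7% with the medians of the genes tested aligned and 71.0% with the medians of all probe sets aligned. The 3 called members kept their direction and their calls under both alignments.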

How the data were processed

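Total RNA of CD11b-sorted spleen cells was labelled with biotin and hybridised to 1 array per mouse, 3 mice a group. Each deposited value is a probe set's level on the log2 scale, which the authors made with RMA in Affymetrix Expression Console, per the submitters' processing notes. Versions and genome build are not given in the sources used here. This method makes the arrays' distributions of probe intensities equal before they are summarised to probe sets, which would remove a shift of most genes. The medians of the probe set values still differed a little, from 5.42 to 5.43 with PBS and from 5.44 to 5.46 with rapamycin. Arrays have no sequencing depth. Of 35556 probe sets, 21789 had 1 symbol in GEO's platform annotation of 2016, 1621 had several and 12146 were not listed; only the first were used, with the brightest of a gene's probe sets. This gave 19938 genes, of which 13965 passed the brightness threshold.

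Rapamycin was set against PBS in R 4.3.3 with limma 3.58.1 (lmFit, eBayes, 2-sided, Benjamini-Hochberg adjustment over all genes tested). Members under the threshold were read from the same fit over all genes. The labels call the mice biological replicates, and no 2 arrays shared more than 6.99% of values exactly. As a check of the code, the fit was also run on simulated data with known changes. The noise there was independent between genes, so this run does not test the calls reported here. The members, the pathway and marker lists and the rule for naming genes were chosen with earlier results of these data known. That rule names the members, called genes of each pathway list (or the one with the largest statistic), up to 3 called genes of each marker list, and the 3 genes most correlated with each called member; other named genes and the motifs were chosen after their values were seen. A kappa B motif was also searched and is not reported here. Same-numbered mice did not deviate together in all pairs (correlations of deviations 0.26, 0.01 and 0.05), so the numbers were not used as pairs. Alternatives were other filters, scalings, variance models, array weights, the replicate block and leaving out each array. No hybridisation date is in the labels used here, so array batches were not tested. Plots were made in Python 3.11.15 with matplotlib 3.10.9.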

Additional observations from a re-analysis of the deposited data

How the results depend on the processing

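Il15ra, Il27 and Il6ra kept their direction under every setting listed here, and Il15ra lost its call in the unmoderated fit alone. The 3 calls among the members became 2 after quantile normalization again, 4 with array weights, with the replicate block and with the medians of the genes tested aligned, and 0 in the unmoderated fit. With 1 array left out they numbered between 1 and 3. The replicate block called Il12a (adjusted p 0.0309) and Ebi3 (0.0466) with limma, and Ebi3 was also called with array weights (0.0463) and with the medians of the genes tested aligned (0.0467), an alternative added after seeing the data. With each array left out in turn, the log2 change of Il15 ran from -0.049 (without rapamycin replicate 2, where its sign turned) to 0.12 (without rapamycin replicate 3). That of Il6 ran from -0.11 (without rapamycin replicate 1) to 0.0077 (without PBS replicate 3, where its sign turned). Neither passed the test in any of these fits. In the unmoderated fit the genes called over all genes were 86 in place of 1584, and the pathway and marker calls were 0 in place of 11 each, with 15 pathway and 14 marker genes at an unadjusted p under 0.05; it has few residual degrees of freedom. Leaving out 1 array gave between 113 and 1337 genes over all, 0 to 11 pathway genes and 1 to 9 marker genes, in fits that also had fewer samples. Marker calls were 17 with the replicate block and 17 with the medians of genes tested aligned. With 3 arrays a group and RMA values, the differences of Il6, Il23a and Il12b, near background, were not resolved. The largest shift of the median gene by a scaling was 0.03 (log2).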

Other observations

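Rapamycin replicate 3 had the lowest value of its group for 7 of the 10 members and pathway genes that were called higher (Il27, Socs1, Rhbdf2, Irf1, Nfil3, Il4ra and Pias1). The same mouse was the lowest for 284 of the 617 genes called higher over all genes (46.0%), rapamycin replicate 2 for 249 and rapamycin replicate 1 for 84. Limma's array weight, which is smaller for an array farther from its group, was 0.73 for rapamycin replicate 3, the smallest of the 6, and 1.62 for PBS replicate 2, the largest.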
